A study of Phaseolus coccineus with 4 samples.

Results

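Chromosomes 4, 10 and 11 carried the fewest enriched regions per Mb in a ChIP-seq study of the WOX9-like protein in seeds of scarlet runner bean (Phaseolus coccineus). The chromosomes were chosen by that measured density, so the density is given as a description and without a test. They held 3540 of the 20728 regions that had a peak in both replicates, called shared regions from here on. Overlapping peaks of both lists (by 1 bp or more) were merged to make them. The peaks on these chromosomes numbered 5958 of 34876 in replicate 1 and 3935 of 23218 in replicate 2.

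The study sequenced 2 WOX9-like ChIP samples and 2 input samples without antibody, all from the micropylar part of seeds of 1.6 to 2.5 mm harvested at the globular embryo stage, 6 days after pollination by hand. The plants were of the cultivar Hammond's Dwarf Red Flower. An antibody against a peptide of the WOX9-like protein (10 ug) pulled down crosslinked chromatin. Each ChIP replicate has its own peak list, and the input samples were not analysed as samples of their own. The part of the seed used holds the embryo together with seed tissues around it, so each value is an average over the cells of all of them. Whether replicates 1 and 2 were grown or harvested apart is not given in the labels, so the spread between them may be technical.

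WOX9 proteins are transcription factors of the WUSCHEL-related homeobox family, which bind DNA through a homeodomain. In Arabidopsis, WOX9 is known from the basal cells of the young embryo, which give rise to the root end and the suspensor. A ChIP peak is a stretch where more DNA fragments came down with the antibody than in a control library. In many plants, genes are concentrated toward the chromosome ends, and repeats around the centromere. Gene positions and sequences were not used here, so regions are given by their place alone.

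The peak names end in Pv442. This tag was taken to mean a genome build of Phaseolus vulgaris, the common bean. If so, sequence that differs between the species would be under-represented, and how much of each stretch reads could be placed on is not recorded in the lists. Positions are those of the lists, counted from 1. Each peak carries the authors' fold enrichment at its summit over the local control background. The lists do not state total depth, but the fragments behind each summit could be computed. The median peak rested on 76 ChIP fragments in replicate 1 and on 44 in replicate 2, and the median local control background was 17.0 and 8.60. Per the peak names, replicate 1 was set against a control called noAb and replicate 2 against one called input, and whether those controls were of the same kind was not tested.

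Shared regions on chromosomes 4, 10 and 11 were about as strong as elsewhere. They differed from the other 8 chromosomes together in number and place, though chromosome 8 had an even larger share of its regions at its ends. Density was 23.6 shared regions per Mb on chromosome 4, 24.3 on chromosome 11 and 24.9 on chromosome 10, taking the end of the last peak as chromosome length. The next lowest chromosome, number 5, had 27.4 per Mb and so lay just outside the choice. The other 8 chromosomes together had 45.9 per Mb. Chromosomes 4, 10 and 11 made up 28.4% of the span of all 11 chromosomes and held 17.3% of their shared regions.

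Each replicate gave the same low density on its own. Replicate 1 had 40.8 peaks per Mb on chromosomes 4, 10 and 11, against 77.3 on the other 8. Replicate 2 had 27.0 per Mb, against 51.5. The ratio between these densities was 0.526 ± 0.0034 (SD, n = 2 lists). Both lists were used to choose the chromosomes, so this spread only says how closely the lists match.

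The density was low in the middles, and less so at the ends. Each chromosome was divided into the first 25% of its span, the middle 50% and the last 25%. The middle held 201 shared regions on chromosome 4 (8.37 per Mb), 190 on chromosome 10 (8.58 per Mb) and 235 on chromosome 11 (8.78 per Mb). These were the lowest middle densities of the 11 chromosomes, closely followed by chromosome 8 with 8.82 per Mb. The exact Poisson intervals of all 4 overlapped (7.25 to 9.61 on chromosome 4 and 7.81 to 9.92 on chromosome 8). Together the middles of chromosomes 4, 10 and 11 had 8.58 shared regions per Mb, against 30.9 in the middles of the other 8 chromosomes.

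The ends were better filled than the middles but thinner than those of the other 8 chromosomes together. Ends as thin were also found on chromosome 5, with 40.9 shared regions per Mb, against 41.3 on chromosome 10. Together the ends of chromosomes 4, 10 and 11 had 39.9 shared regions per Mb, against 60.9 at the ends of the other 8. The density ratio was thus 0.278 in the middles and 0.656 at the ends. In the separate lists the middle ratio was 0.271 ± 0.0017 and the end ratio 0.655 ± 0.0041 (SD, n = 2 lists each). The ends of chromosomes 4, 10 and 11 held 2914 of the 3540 shared regions (82.3%, Wilson 95% interval 81.0 to 83.5), against 66.3% (65.6 to 67.1) on the other 8. Such a share was not particular to them, as chromosome 8 had 86.6% (85.0 to 88.0) and chromosome 1 had 79.3%, while chromosome 9 had 40.5%. The Wilson intervals treat regions as independent, although regions are clustered, so they are too narrow.

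The shortfall was divided by setting each middle against the middles of the other 8 chromosomes, and each end against their first and last parts pooled. At those densities chromosomes 4, 10 and 11 would have held 3158 more shared regions. Of these, 51.6% were missing from the middles and 48.4% from the ends. The middle accounted for 50.4% of the shortfall on chromosome 4, 53.2% on chromosome 10 and 51.3% on chromosome 11. From the peaks of a single list, the middle accounted for 51.9% in replicate 1 and 51.6% in replicate 2. Chromosome 5 had a similar split, with 45.8% of a shortfall of 756 regions missing from its middle and 54.2% from its ends. Chromosome 8 has an equally bare middle, but there the middle accounted for 84.4% of a shortfall of 825 regions, and its ends had 0.933 times the pooled density of ends. The pooled densities include chromosomes 5 and 8 themselves.

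**Figure D1:**
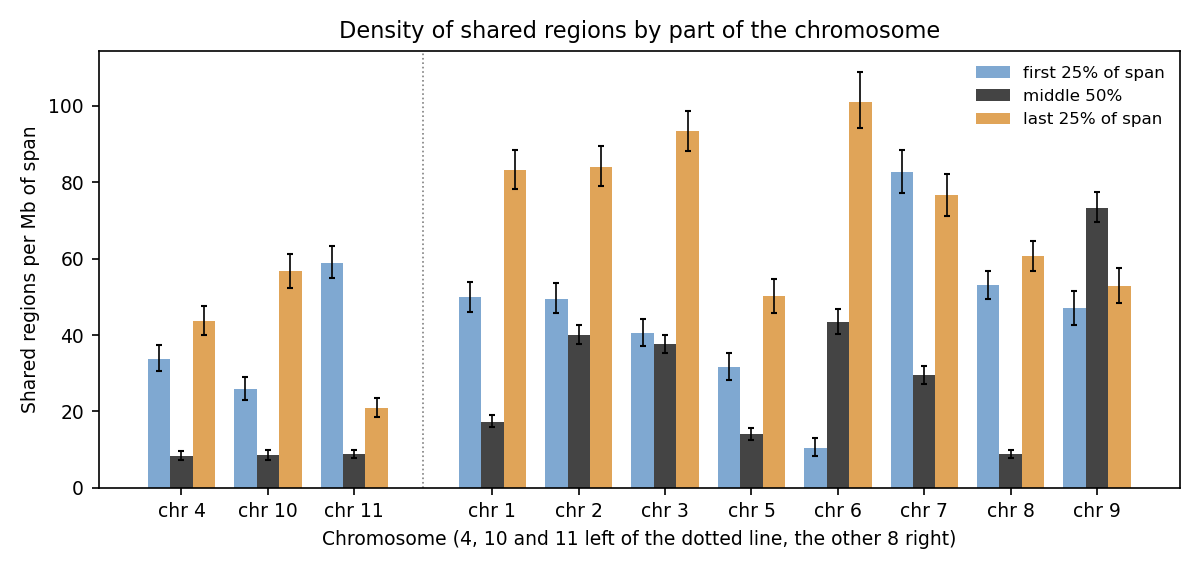
Shared regions per Mb of span (y axis) in the first 25%, the middle 50% and the last 25% of each chromosome (x axis), with chromosomes 4, 10 and 11 on the left. Bars give the density and error lines its exact 95% Poisson interval, which covers counting error only. The middles of chromosomes 4, 10 and 11 lie at 8.37 to 8.78 per Mb, and chromosomes 10 and 11 each have 1 thin end.

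The ends were uneven, and chromosomes 10 and 11 each had 1 end much thinner than the other. On chromosome 11 the last 25% held 280 shared regions (20.9 per Mb, interval 18.5 to 23.5), and the first 25% held 789 (58.9 per Mb, interval 54.9 to 63.2). Against the pooled ends, the last part accounted for 46.4% of the shortfall of that chromosome and the first part for 2.32%. On chromosome 10 the thin end was the first, with 286 shared regions (25.8 per Mb, interval 22.9 to 29.0), against 628 in the last (56.7 per Mb, interval 52.4 to 61.3). The first part accounted for 41.8% of its shortfall and the last for 5.01%. These shares depend on pooling first and last parts, which differed on the other 8 chromosomes, with 46.9 and 74.9 shared regions per Mb. The dense last part of chromosome 10 was thus below the last parts of the other 8 together. It was above those of chromosomes 5 (50.2 per Mb) and 9 (52.8 per Mb). Against matching parts, the shortfall of chromosome 10 would be shared more evenly between its ends. The dense first part of chromosome 11 was above the first parts of the other 8 together, but below that of chromosome 7 (82.7 per Mb). The intervals treat regions as independent, although regions are clustered.

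Both ends of chromosome 4 lay below the pooled density of the ends elsewhere, though not below every single end. Its first 25% held 406 shared regions (33.8 per Mb) and its last 25% held 525 (43.7 per Mb). Against the pooled ends they accounted for 30.3% and 19.3% of its shortfall, an order that depends on that pooling. The first parts of the other 8 chromosomes together had 46.9 per Mb and their last parts 74.9. The last part of chromosome 4 lay further below its matching value than the first part did. Of the 22 chromosome ends, the last part of chromosome 11 stood 2nd from the lowest in density, the first part of chromosome 10 3rd, the first part of chromosome 4 5th and its last part 7th. The first parts of chromosomes 6 and 5 were thinner than both ends of chromosome 4, and the first part of chromosome 3 was thinner than its last. The lowest was the first part of chromosome 6 with 10.5 per Mb. The other ends of chromosomes 10 and 11 stood 14th and 15th of 22, with 0.931 and 0.967 times the pooled density of the ends elsewhere.

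The 1 Mb profile of chromosome 4 was a pair of short filled ends around a long thin interior. From the start, 6 bins in a row held more than 10 shared regions each, 290 in all, and from the far end 12 did, with 525. The 30 bins between them, from 6 to 36 Mb, held 317 shared regions, or 10.6 per Mb, and the fullest of them held 37. The filled start ended at a bin with 5 shared regions, at 6 to 7 Mb. The bins at 7 to 8 Mb and 8 to 9 Mb held 37 and 28. The densest bins lay at 46 to 47 Mb, with 83 shared regions, and at 2 to 3 Mb, with 82. The bin at 46 to 47 Mb held 149 replicate 1 peaks and 105 replicate 2 peaks, the most on this chromosome in both lists. Counted in the same way, chromosome 8 had an interior of 28 bins with 7.46 per Mb. Shorter interiors lay on chromosomes 6 (9.56 per Mb) and 3 (10.4 per Mb).

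Chromosome 10 rose steeply toward its far end only. The 11 bins at the far end held 618 shared regions (56.2 per Mb), with the densest at 40 to 41 Mb (97 shared regions) and, with 86 each, at 39 to 40 Mb and 43 to 44 Mb. The 13 bins at the start also held more than 10 each, but only 24.7 per Mb, and none of the bins in the first 25% exceeded 48. The 20 bins between, from 13 to 33 Mb, held 154 shared regions (7.70 per Mb), with at most 18 in a bin. None of the 44 bins of chromosome 10 was empty of shared regions.

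Chromosome 11 was the mirror case, full at the start. Its first 16 bins held 870 shared regions (54.4 per Mb), with the densest at 5 to 6 Mb (94 shared regions) and 3 to 4 Mb (91). The last 12 bins held more than 10 each but only 20.2 per Mb, and none in the last 25% exceeded 36. The 25 bins between, from 16 to 41 Mb, held 154 shared regions (6.16 per Mb). Chromosome 11 had 6 bins without a shared region, and 3 of these held no peak of either list. The other 3 held 5 replicate 1 peaks in all and no replicate 2 peak.

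**Figure D2:**
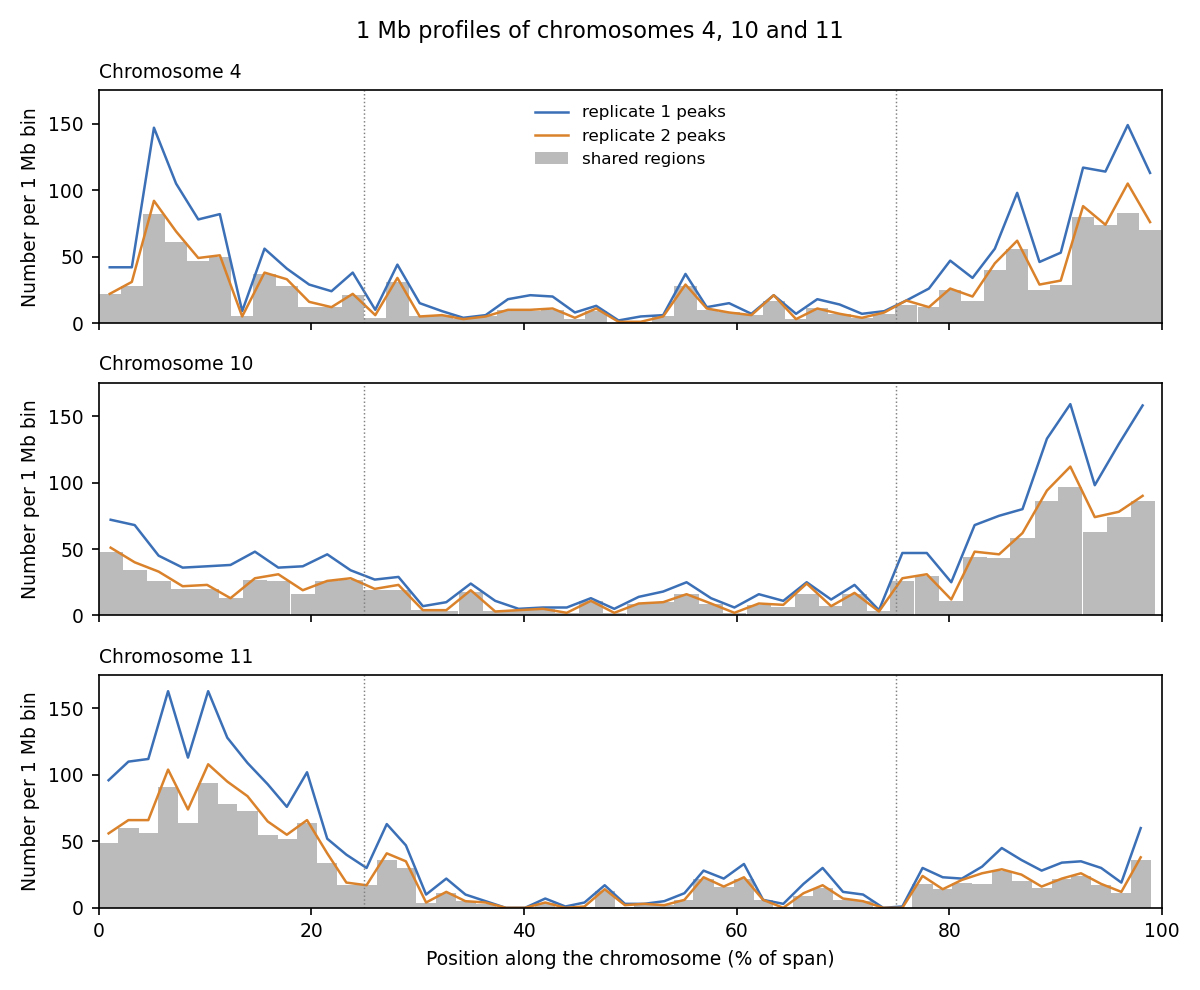
Number per 1 Mb bin (y axis) of shared regions (grey bars), replicate 1 peaks and replicate 2 peaks (lines) along chromosomes 4, 10 and 11 (x axis, % of span). Dotted lines mark 25% and 75% of the span. Both lists rise at both ends of chromosome 4, at the far end of chromosome 10 and at the start of chromosome 11.

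Thin bins were common and dense bins few. Of the 145 whole bins on chromosomes 4, 10 and 11, 35 (24.1%) held 5 or fewer shared regions, against 33 of 365 (9.04%) on the other 8 chromosomes. Chromosome 8 supplied 14 of those 33, and its share of 22.2% lay above the 20.5% of chromosome 10. Bins with more than 50 numbered 23 (15.9%), against 146 (40.0%) on the other 8. Among these, chromosome 5 had 17.5%, between chromosome 4 (14.6%) and chromosome 11 (18.9%). The median bin held 16.0 shared regions on chromosomes 4, 10 and 11, against 40.0 on the other 8. Of the shared regions, 50% lay in the fullest 18.8% of the bins on chromosome 4, 18.2% on chromosome 10 and 17.0% on chromosome 11. On the single other chromosomes this value was between 20.6% (chromosome 8) and 39.5% (chromosome 9). Bin counts of the 2 lists went together on each chromosome (Spearman rho 0.97, 0.96 and 0.99 across 48, 44 and 53 bins of chromosomes 4, 10 and 11). The bins share the genome build and the mapping, so this describes the lists only.

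Long stretches without a shared region took up much of these chromosomes. Stretches of more than 0.5 Mb numbered 47 on chromosomes 4, 10 and 11, against 45 on the other 8 chromosomes with 2.5 times the span. They covered 29.8% of the span, against 10.98%. By chromosome they covered 31.4% of chromosome 4, 27.0% of chromosome 10 and 30.7% of chromosome 11. Chromosome 8 came nearest among the others, with 23.5%. Stretches of more than 1 Mb covered 15.8% of chromosome 4 and 19.97% of chromosome 11, but 5.67% of chromosome 10. They covered 4.69% of the other 8 together. Chromosomes 1 (9.36%), 3 (8.06%) and 5 (6.10%) among these lay above chromosome 10.

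On chromosome 11 the longest stretch ran for 3.13 Mb, from 38369481 to 41500985. It held 2 replicate 1 peaks, the stronger with a fold of 3.47, and no replicate 2 peak. The next ran for 2.69 Mb from 22301518 to 24987692, with 6 replicate 1 peaks of fold 4.61 or less. The third ran for 2.28 Mb, from 19923059 to 22208033, and held no peak of either list. Between the second and the third lay 93 kb with 4 shared regions.

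On chromosome 4 the longest stretch covered 2.75 Mb, from 22203067 to 24949753. It was not empty of enrichment, as it held 6 replicate 1 peaks, up to a fold of 8.26, and 1 replicate 2 peak of fold 5.86, none overlapping. Its longest piece without any peak was 0.929 Mb. The second ran for 1.51 Mb, from 16157326 to 17671342, and the third for 1.22 Mb, from 36323735 to 37544380, each with 1 replicate 1 peak. The stretches of chromosome 10 were shorter. They were 1.39 Mb from 17098970 to 18485165, 1.12 Mb from 18732898 to 19855642, and 0.791 Mb from 32143829 to 32934546. The first pair held 2 and 4 replicate 1 peaks, of fold 4.13 or less, and the third held none. Stretches longer than any on chromosome 10 also lay on chromosomes 5 (2.50 Mb), 1 (1.87 Mb), 3 (1.65 Mb) and 8 (1.52 Mb). That of chromosome 6, from 699216 to 2093019, was slightly longer too, though both round to 1.39 Mb.

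**Figure D3:**
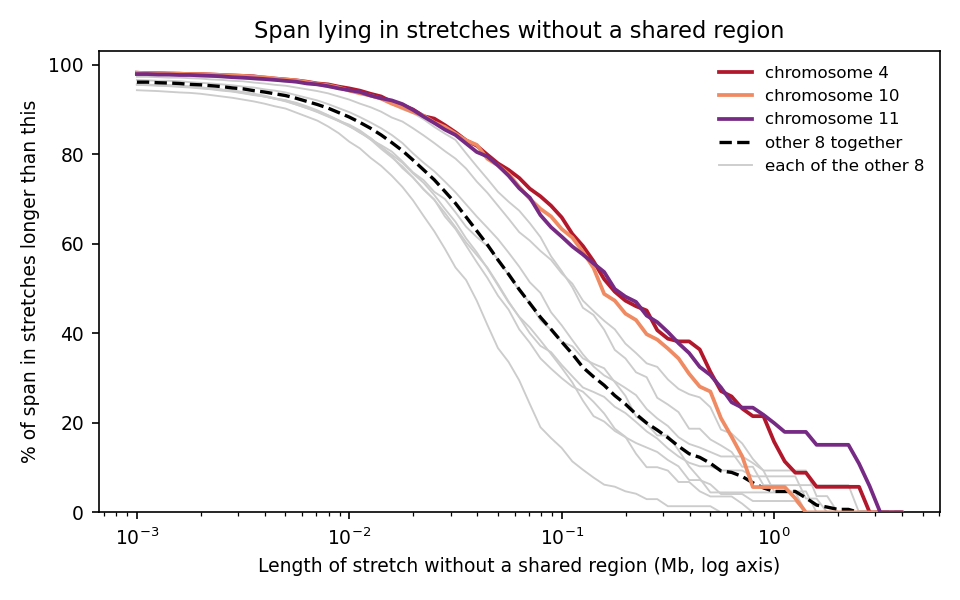
Percentage of the span (y axis) lying in stretches without a shared region longer than the length on the x axis (Mb, log axis), for chromosomes 4, 10 and 11, the other 8 together (dashed) and each of the other 8 (grey). At 0.5 Mb the curves of chromosomes 4, 10 and 11 stand at 27.0% to 31.4% and that of the other 8 together at 10.98%.

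Where regions did occur they were still close together. The median distance between the centres of neighbouring shared regions was 8625 bp on chromosomes 4, 10 and 11, against 6609 bp on the other 8. The upper quartile differed more, at 30375 bp against 20236 bp. Chromosome 5 had wider spacing than any of the 3, with a median of 10080 bp and an upper quartile of 35684 bp. A neighbour within 2 kb was found for 45.4% of the shared regions, against 50.9% on the other 8 and 46.7% on chromosome 5 among them. Regions with no other within 100 kb numbered 79 of 3540 (2.23%), against 111 of 16893 (0.657%) on the other 8. By chromosome the share was 2.30% on chromosome 4, 2.72% on chromosome 10 and 1.76% on chromosome 11, and chromosome 5 had 2.14%. These 79 made up 79 of the 190 such regions on all 11 chromosomes. Their median lower fold was 4.40 and their median width 472 bp, against 4.77 and 518 bp for the rest of chromosomes 4, 10 and 11. On the other 8 chromosomes the fold ran the other way, with 4.95 for such regions, against 4.75 for the rest.

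Enrichment at the shared regions was close to that elsewhere. As the strength of a region, the lower of its 2 folds was taken. Its median was 4.81 on chromosome 4, 4.73 on chromosome 10 and 4.72 on chromosome 11, and it was between 4.68 and 4.92 on the single other chromosomes. Together it was 4.75 on chromosomes 4, 10 and 11, against 4.75 on the other 8. The replicate 1 fold had a median of 5.75, against 5.84, and the replicate 2 fold had 5.38, against 5.30, so the small differences ran in opposite directions. With 2 samples of 1 kind no test across samples could be made, and regions are not replicates.

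The share of strong regions differed by less than counting error. A fold of 10 or more in both replicates was reached by 321 of the 3540 shared regions on chromosomes 4, 10 and 11 (9.07%, Wilson interval 8.17 to 10.1), against 1472 of 16893 on the other 8 (8.71%, interval 8.30 to 9.15). Over all shared regions the share was 8.78%. It was 8.83% on chromosome 4, 8.42% on chromosome 10 and 9.82% on chromosome 11. Of the 100 strongest shared regions of all, 22 lay on chromosomes 4, 10 and 11, which held 17.1% of all shared regions. Chromosome 4 had 10 of them, chromosome 10 had 8 and chromosome 11 had 4.

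Regions in the bare middles had folds close to those at the ends. The median lower fold was 4.97 in the middles of chromosomes 4, 10 and 11 (quartiles 3.54 and 6.97), against 4.70 at their ends (quartiles 3.44 and 6.71). On the other 8 chromosomes it was 4.76 in the middles and 4.75 at the ends. In replicate 1 the median fold was 6.13 in the middles of chromosomes 4, 10 and 11, against 5.66 at their ends, with a median control background of 16.0 in the middles, against 17.0 at the ends. In replicate 2 the median fold was 5.60, against 5.34, with the same background of 7.74 in both. The median number of ChIP fragments was 105 in the middles and 104 at the ends in replicate 1, and 46.0 and 45.0 in replicate 2. The part of the replicate 1 background in the difference was not tested. The lowest median lower fold of any part lay at the thin start of chromosome 10, with 4.19, whereas the thin far end of chromosome 11 had 4.89.

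Strength showed little relation to density from bin to bin. On chromosomes 4, 10 and 11, bins with 1 to 10 shared regions had a median lower fold of 4.73, those with 11 to 30 had 4.88, those with 31 to 60 had 4.75 and those with more than 60 had 4.67. The share with a fold of 10 or more in both replicates was 9.52%, 8.74%, 9.35% and 9.09% in the same order. Across 117 bins with at least 5 shared regions, the bin's number of regions and its median lower fold had a Spearman rho of −0.14, a weak relation given as a description. On the other 8 chromosomes rho was 0.04 across 336 bins.

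Shared regions were slightly narrower on chromosomes 4, 10 and 11. The median width was 493 bp on chromosome 4, 530 bp on chromosome 11 and 534 bp on chromosome 10, the lowest of the 11 chromosomes, and between 536 and 558 bp on the single other chromosomes. Together it was 517 bp, against 546 bp. In the separate lists, over all peaks with or without a partner and before merging, the difference was smaller. The median peak was 399 bp wide against 408 bp in replicate 1 and 344 bp against 353 bp in replicate 2. In replicate 1, peaks of chromosomes 10 (405 bp) and 11 (407 bp) lay inside the range of the other chromosomes (400 to 418 bp).

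Broad regions of 1500 bp or more made up 3.45% of the shared regions on chromosomes 4, 10 and 11 (122 regions, Wilson interval 2.89 to 4.10), against 4.93% (832 regions, interval 4.61 to 5.26) on the other 8. Over all shared regions the share was 4.66%. The lower share was that of chromosomes 4 (2.92%, interval 2.08 to 4.07) and 10 (2.90%, interval 2.06 to 4.06). Chromosome 11, with 4.37% (interval 3.39 to 5.62), lay within the range of the single other chromosomes, 4.26% to 5.44%. The intervals cover counting error over regions only, and no test across samples was possible.

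The share of broad regions varied between the ends, on small counts that are given without intervals. The thin start of chromosome 10 held 6 of them (2.10% of its shared regions), the start of chromosome 4 held 8 (1.97%) and the thin far end of chromosome 11 held 6 (2.14%). The dense start of chromosome 11 held 40 (5.07%), but the dense far end of chromosome 10 held 18 (2.87%). The far end of chromosome 4 held 19 (3.62%). In the bare middles of chromosomes 4, 10 and 11 broad regions made up 3.99%, against 3.33% at their ends. By density, broad regions were 2.38% (interval 1.10 to 5.10) of shared regions in bins with 1 to 10 of them on chromosomes 4, 10 and 11, and 4.17% (interval 3.22 to 5.38) in bins with more than 60. On the other 8 chromosomes the shares were 3.85% (interval 2.16 to 6.75) and 5.21% (interval 4.79 to 5.65). Median ChIP fragments at the summits were also slightly fewer, 104 on chromosomes 4, 10 and 11 against 107 on the other 8 in replicate 1, and 45.0 against 47.0 in replicate 2. Whether depth bears on the widths was not tested.

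**Figure D4:**
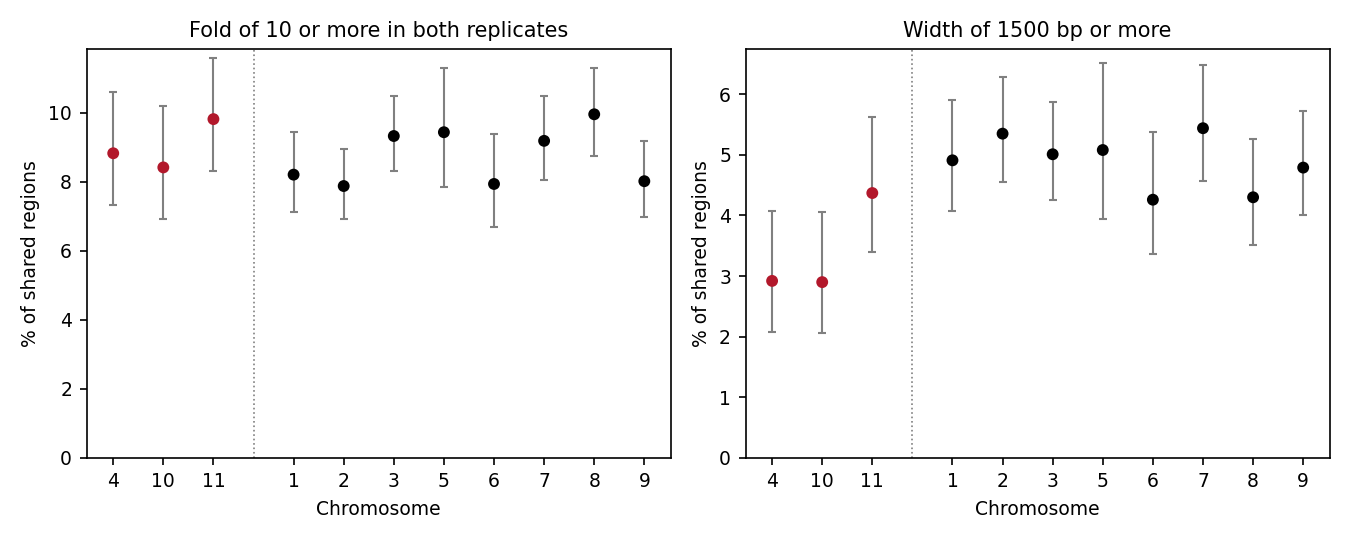
Share of each chromosome's shared regions (y axis, %) with a fold of 10 or more in both replicates (left) and with a width of 1500 bp or more (right), with chromosomes 4, 10 and 11 in red left of the dotted line. Error lines are Wilson 95% intervals. On the left chromosomes 4, 10 and 11 lie among the others, and on the right chromosomes 4 and 10 lie lowest, at 2.92% and 2.90%.

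The strongest region of chromosome 4 spans 5003944 to 5004550 and ranked first of all shared regions by its lower fold. Its fold was 26.2 in replicate 1 (interval 23.1 to 29.5, 262 fragments) and 31.5 in replicate 2 (interval 27.2 to 36.2, 193 fragments). The interval is the exact 95% Poisson interval of the ChIP fragments and leaves out the error of the control, as do those that follow. Backgrounds at the 5 strongest regions of each chromosome were low in replicate 1, between 8.00 and 15.1, against a list median of 17.0. In replicate 2 they were between 4.26 and 10.3, against a median of 8.60, with 5.16 at the region ranked first. The part of the backgrounds in these high folds was not tested. The next strongest pair are neighbours 1045 bp apart, from 1582724 to 1583403 and from 1584449 to 1585193. The first of this pair had folds of 24.8 and 19.7, and the other had 18.9 and 22.3, so their order differed between replicates 1 and 2. Their summits rested on 273 and 188 fragments and on 208 and 117 fragments. The fourth, from 41252000 to 41252966, had folds of 19.0 and 17.8. The fifth, from 41989283 to 41990030, had 20.6 and 17.8.

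On chromosome 10 the strongest region spans 4417319 to 4417864, inside the thin start, with folds of 22.1 (interval 19.6 to 24.9) and 24.5 (interval 21.2 to 28.2). The second, from 20104347 to 20105028, lies at 45.4% of the span, in a 1 Mb bin with 11 shared regions. Its folds were 19.2 (interval 16.5 to 22.3, 173 fragments) and 26.2 (interval 22.0 to 31.0, 137 fragments), with a control background of 8.00 in replicate 1 and 4.26 in replicate 2. These backgrounds were the lowest of the 15. The third, from 43495694 to 43497243, had 19.5 and 18.9 and joined 2 replicate 2 peaks. The fourth, from 37669848 to 37670643, had 18.9 and 19.1, and the fifth, from 8115921 to 8117404, had 18.0 and 17.7.

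The strongest regions of chromosome 11 were lower. The first, from 10813629 to 10815084, had folds of 18.0 (interval 16.0 to 20.2) and 17.7 (interval 15.2 to 20.4) and ranked 51st of all shared regions. The second, from 4495906 to 4496909, had 17.2 and 19.3. The third, from 14293510 to 14294248, had 17.1 and 17.2, with summits 3 bp apart. The fourth and the fifth lie 5893 bp apart, from 6112904 to 6113565 and from 6105896 to 6107010, with folds of 20.8 and 17.0 and of 15.7 and 16.2. None of the 5 lay in the thin far end. Even so, 28 of the 280 shared regions there (10.0%) had a fold of 10 or more in both replicates, against 9.89% in the dense start. For all 15 regions the Poisson intervals of the 2 replicates overlapped, which does not show that the folds were equal.

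Strong regions also stood inside the longest runs of thin bins (5 or fewer shared regions in each). On chromosome 11 the run went from 18 to 25 Mb and held 13 shared regions. The strongest of them, from 19077126 to 19077997, had a fold of 11.8 in replicate 1 (interval 10.2 to 13.5, 212 fragments) and 17.8 in replicate 2 (interval 14.8 to 21.2, 124 fragments), and these intervals did not overlap. On chromosome 10 the run went from 16 to 20 Mb, with 14 shared regions. The strongest, from 17083835 to 17084631, had 14.4 and 15.8. On chromosome 4 the run went from 23 to 26 Mb, with 6 shared regions, of which the one from 25844246 to 25845034 had 10.7 and 10.1. Each of the 3 had another shared region close by, at 484 bp, 1436 bp and 1364 bp in the order given.

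**Figure D5:**
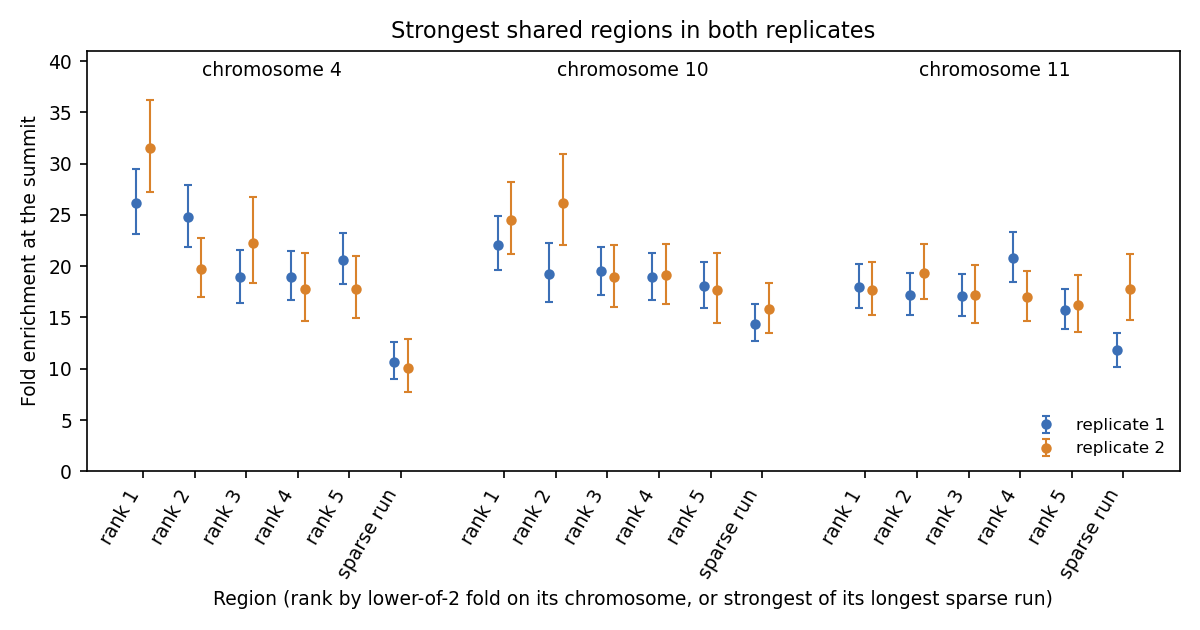
Fold enrichment at the summit (y axis) in replicate 1 and replicate 2 of the 5 strongest shared regions of chromosomes 4, 10 and 11 (x axis) and of the strongest region in the longest run of thin bins on each. Error lines are exact 95% Poisson intervals of the ChIP fragments. Replicates overlap at every region shown except the thin-run region of chromosome 11, with 11.8 and 17.8.

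The widest shared region of chromosome 11 spans 4924 bp, from 6899118 to 6904041, in the dense start. It had folds of 13.1 and 14.6 and joined 1 replicate 1 peak to 3 replicate 2 peaks. The widest of chromosome 10 was shorter, 2682 bp from 40413298 to 40415979, with folds of 6.25 and 7.55. That of chromosome 4 spans 6073 bp, from 46841894 to 46847966, and joined 7 replicate 2 peaks under 1 replicate 1 peak. Its folds of 5.20 and 5.12 come from summits 5112 bp apart, so they do not describe the same place.

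The share of peaks found in both replicates differed from that elsewhere by less than counting error. Of the replicate 1 peaks on chromosomes 4, 10 and 11, 3568 of 5958 (59.9%, Wilson interval 58.6 to 61.1) overlapped a replicate 2 peak, against 59.99% over the whole list and also 59.99% (interval 59.4 to 60.6) on the other 8 chromosomes. The difference was −0.10 percentage points (interval −1.47 to 1.26, counting error only). Of the replicate 2 peaks, 3770 of 3935 (95.8%) had a partner, against 96.2% over the whole list. In the bare middles 61.3% (interval 58.3 to 64.2) of replicate 1 peaks had a partner, against 59.6% (interval 58.2 to 60.9) at the ends. Regions of replicate 1 alone were also thin in the middles, where 400 of them lay at 5.48 per Mb, against 27.3 per Mb at the ends. On the other 8 chromosomes they lay at 20.7 per Mb in the middles and 41.2 at the ends. Chromosome 8 among these had 8.34 and 37.6 per Mb.

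Summits lay about as close together as elsewhere. In a shared region, the summits of the lists lay a median 33.0 bp apart on chromosome 4 and 37.0 bp apart on chromosomes 10 and 11, against 36.0 bp on the other 8 together. The strongest peak without a partner on chromosome 4 was a replicate 1 peak from 2472122 to 2472659. Its fold was 11.7 (interval 9.51 to 14.2) over a control background of 7.43, the lowest value in that list. Unpartnered replicate 1 peaks numbered 754 on chromosome 4, 740 on chromosome 10 and 896 on chromosome 11. Folds of 10 or more were not counted among unpartnered peaks of the other 8 chromosomes, so no share there can be compared. Such folds were reached by 1, 4 and 5 of the unpartnered peaks of chromosomes 4, 10 and 11. Whether these counts are high or low was therefore not tested. The strongest were those from 10364755 to 10365332 on chromosome 10, with a fold of 14.1, and from 18066375 to 18066836 on chromosome 11, with 14.6. Their backgrounds lay below the list median of 17.0. In replicate 2 the strongest without a partner had folds of 8.12 on chromosome 4 (47060605 to 47060873), 8.28 on chromosome 10 (41076245 to 41076482) and 12.1 on chromosome 11 (2616168 to 2616490).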

How the data were processed

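The authors deposited 1 peak list per ChIP replicate. Per the submitters' processing notes the tools were MACS2, Bowtie 0.12.7 and SAMtools 0.1.18, with no settings given. Each deposited list gives peak and summit positions, a whole-number score (not used), the authors' fold enrichment over control (a ratio), and −log10 of the p-value and q-value. The lowest deposited −log10 q was 2.00 and 2.03 in replicates 1 and 2. The genome build is not given in words in the sources used here.

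Peaks of both lists that overlapped by 1 bp or more were merged, and a region with a peak of each list was called shared. Each region carries the highest-fold peak of each list. Regions were placed by their centre into whole 1 Mb bins and into the first 25%, middle 50% and last 25% of the span, which runs to the end of the last peak. Fragment counts were computed from the deposited fold and p-value, by the formulas MACS2 uses, and matched −log10 p to within 0.002 at all peaks. Molecular identifiers are not mentioned in the labels, so PCR copies of 1 molecule may be counted more than once, and fragments are not independent molecules. Poisson and Wilson 95% intervals cover counting error only, and those over regions or peaks treat them as independent although they are clustered. Merging and fragment counts were checked on simulated data. The analysis used Python 3.11.15, pandas 2.3.3 and scipy 1.17.1.

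The members, the rules for the regions named and the alternatives were chosen with earlier results of these data known, and the filled bins counted from each end were added after the profiles were seen. Regions named are, per chromosome, the 5 shared regions of highest lower fold, the widest, the 3 longest stretches without a shared region, the 2 densest bins, the longest run of bins with 5 or fewer shared regions and its strongest region, and the strongest peak without a partner in each list. Peaks on scaffolds were left out of comparisons between chromosomes. With 2 samples of 1 kind, no test across samples was made.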

Additional observations from a re-analysis of the deposited data

How the results depend on the processing

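Of 60 alternative values, 16 stayed within the spread between the 2 lists (or, for the difference in partner share in replicate 1, within its interval). The other 44 moved by more than that very small spread. The density ratio of chromosomes 4, 10 and 11 to the other 8 was 0.529 in all, 0.278 in the middles and 0.656 at the ends. These 3 ratios were 0.536, 0.286 and 0.663 with overlap of at least 50% of both peaks, and 0.539, 0.283 and 0.668 with 1 peak of each list per region. Without chromosome 9 among the others they were 0.550, 0.330 and 0.642. Without chromosomes 5 and 8, an alternative chosen after seeing the data, they were 0.468, 0.221 and 0.615. The middle ratio was 0.282 with summits within 100 bp. With a fold of at least 5 the middle and end ratios were 0.299 and 0.644, with ends of 20% of the span 0.316 and 0.693, and with ends of 10 Mb 0.331 and 0.685. When either replicate was left out, the ratios were 0.524 to 0.528 in all, 0.270 to 0.273 in the middles and 0.652 to 0.658 at the ends. The share of shared regions at the ends, 82.3%, was 82.2% with 50% overlap, 82.1% with summits within 100 bp, 80.8% with a fold of at least 5, 82.4% with single peaks and 82.6% when either replicate was left out. It was 73.9% with ends of 20% and 74.3% with ends of 10 Mb, as narrower ends must hold fewer. The median fold ratio, 1.00, was 1.01 with 50% overlap, with single peaks and when either replicate was left out. It was 0.998 for peaks of −log10 q 5 or more, 0.969 for those of fold 5 or more, and 0.967 for −log10 q in place of fold, so its side of 1 depended on the measure. The median width ratio, 0.947, was 0.955 with 50% overlap, 0.941 with summits within 100 bp, 0.943 for −log10 q 5 or more, 0.894 for fold 5 or more, 0.952 with single peaks, and 0.975 to 0.978 when either replicate was left out. The causes of these moves were not tested. No paired analysis was possible because values exist here for the ChIP samples alone, and these form 1 group. Total depth is unknown, and the fragments at a summit limit the precision of its fold.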
